A study of Mus musculus with 18 samples.

Results

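Purinergic and adenosine signalling genes are described here through 10 members: the ectonucleotidases Entpd1 and Nt5e, the adenosine receptors Adora2a, Adora2b and Adora3, the ATP-gated channels P2rx1, P2rx4 and P2rx7, and the nucleotide receptors P2ry2 and P2ry14. They were chosen by gene symbol from the deposited table, in which 11 of 22708 genes carry a member's symbol and 10 of these also have the Entrez ID of the named gene. The remaining entry is labelled Adora3 but has the ID of the neighbouring gene Tmigd3, so it is reported beside Adora3 under that name.

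Cells release ATP and other nucleotides when they are stressed, damaged or activated, and these act on P2X channels, which open when ATP binds, and on P2Y receptors, which couple to G proteins. CD39, the product of Entpd1, removes phosphates from ATP and ADP to give AMP, and CD73, the product of Nt5e, turns AMP into adenosine, which acts on its own G protein-coupled receptors and tends to restrain inflammation. In the gut wall, where nucleotides and adenosine come from epithelium, immune cells and bacteria, eosinophils are resident granulocytes that can sense both.

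The study asked how AHR, the aryl hydrocarbon receptor, which regulates transcription once a ligand binds it, affects eosinophils of the small intestine. RNA was sequenced in bulk from eosinophils sorted as CD11b+, MHC-II-, SiglecF+ and SSChi cells, in 18 samples of the strain that the labels give as C57/BL6. The 3 groups were WT (genotype wildtype), Ahr-KO (lacking Ahr by label) and Ahrr-KO (lacking Ahrr, the gene of the AHR repressor, by label), each with 6 samples, 3 from females (F1 to F3) and 3 from males (M1 to M3). The comparisons asked which genes differed between each knockout and WT, between the knockouts, and between the sexes. No group was treated, and the labels give no age; the methods describe young mice of both sexes, matched for age, for the study as a whole. Ahr-KO mice lack Ahr in the whole body, so a difference from WT can arise in eosinophils or in their surroundings. According to the study's methods, Ahr-KO and WT mice were neither littermates nor cohoused, so litter and housing cannot be told apart from genotype, and no line is described for Ahrr-KO. The study counts each WT and Ahr-KO sample as a mouse, and for Ahrr-KO the labels do not say, so p-values measure the spread between these samples. In bulk RNA, fewer cells of a type and less RNA per cell cannot be told apart.

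Levels are given on the authors' log2 variance-stabilized scale, where 5.02 stands for a count of 0, and a difference is between means on that scale. This scale compresses the differences of genes with low counts, so the ratio of mean normalized counts (counts divided by each sample's size factor) is given beside them for Adora2a, Adora2b, Adora3, P2rx7 and Tmigd3, and for some other genes, in the direction of the difference unless stated. Total counts per sample ran from 3842977 to 12046933, with medians of 6022410 in WT, 9647590 in Ahr-KO and 10371556 in Ahrr-KO, so low counts were least precise in WT. The WT F3 library had 20244 genes above a count of 0 and the Ahr-KO F3 library 19694, while the other 16 libraries had 15146 to 17236.

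The labels were checked against the targeted genes and against Cyp1b1, a known AHR target. Ahrr, which AHR induces, had 0 to 10 counts in the Ahr-KO samples (median 1, n = 6) and 550 to 1024 counts in WT. Cyp1b1 had 1 to 5 counts in Ahr-KO, 218 to 917 in WT and 867 to 1525 in Ahrr-KO, with an Ahrr-KO minus WT difference of 0.41 (log2, limma adjusted p = 0.707). Both were thus nearly absent from every Ahr-KO sample. The Ahr level itself was 14.15, 14.55 and 14.67 (lowest, median and highest, log2, n = 6) in Ahr-KO and 13.40, 13.76 and 14.40 in WT, so its RNA was not lower in Ahr-KO. Ahrr had 1104 to 2151 counts in Ahrr-KO (log2 level 9.95 to 10.93, median 10.37, n = 6), with an Ahrr-KO minus WT difference of 0.28 (log2, standard error 0.18, limma adjusted p = 0.683). Ahrr RNA was therefore not lower in Ahrr-KO than in WT. A count over a whole gene cannot show whether an exon is missing, so each sample keeps the genotype of its label.

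The sorted cells had RNA of eosinophil surface receptors and little RNA of several granule proteins. Of 9 eosinophil markers the most abundant was Alox15, a lipoxygenase, with a median normalized count of 18224 over the 18 samples, and Ccr3, the eotaxin receptor, had 12120. Epx, the eosinophil peroxidase, had a median normalized count of 11.6, Ear2 4.38, Ear1 1.56 and Prg3 1.95, with Prg3 at 0 in 6 samples. Prg2, a further granule protein gene, had a median normalized count of 107. By genotype its medians were 66 in WT, 627 in Ahr-KO and 89.8 in Ahrr-KO. The label is borne out by Siglecf, Ccr3 and Il5ra, whose median normalized counts were 2257, 12120 and 2099. The study found the main granule protein genes higher in bone marrow than in intestinal eosinophils, so their low RNA does not count against the label.

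Levels of different genes were compared in WT per kilobase of exon, as normalized counts divided by the length of all annotated exons of the gene. Entpd1 was at the top with a level of 576, 725 and 979 normalized counts per kilobase (lowest, median and highest, n = 6). P2rx1 followed with a median level of 401 (345 to 506), then P2ry14 with 242 (149 to 303) and P2ry2 with 210 (183 to 266). These 4 genes encode an ATP-degrading enzyme, an ATP-gated channel and a pair of receptors for nucleotides and UDP-sugars, and each lay above every value of the other 6 members. P2rx4 had a median level of 30.4 normalized counts per kilobase (23.8 to 40.7), Adora3 19.5 (11.2 to 36.2), Adora2a 13.3 (2.73 to 43.9) and Adora2b 9.54 (1.94 to 39.9). P2rx7 had 3.37 (2.4 to 6.85) and Nt5e 0.626 (0.297 to 1.92). Between neighbours in this order, the ranges did not overlap for Entpd1 and P2rx1, P2rx1 and P2ry14, P2ry2 and P2rx4, and P2rx7 and Nt5e. P2ry14 and P2ry2 overlapped, as did P2rx4 with Adora3, Adora3 with Adora2a, Adora2a with Adora2b, and Adora2b with P2rx7. Of the separations, 2 were lost when the longest transcript was taken as length, with levels per kilobase of 364 to 534 for P2rx1 and 212 to 430 for P2ry14, and of 2.9 to 8.29 for P2rx7 and 0.64 to 4.14 for Nt5e.

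**Figure D1:**
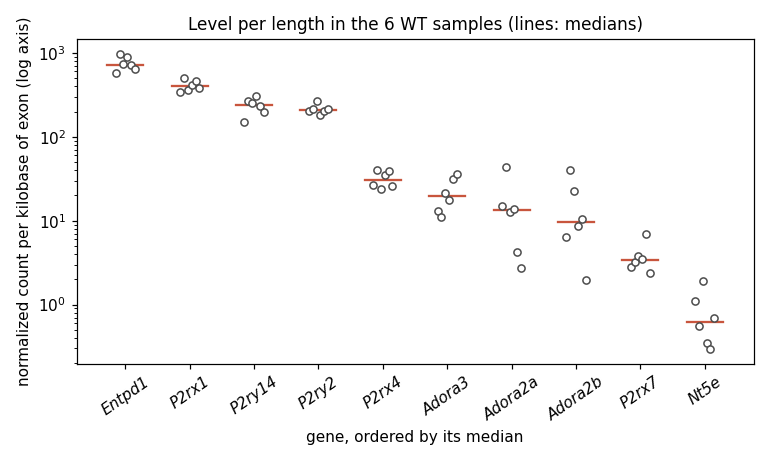
Level of each gene in the 6 WT samples (circles) as normalized counts per kilobase of exon, on a log axis, with the median as a line and the genes ordered by it. Entpd1 had the highest median (725) and Nt5e the lowest (0.626), and Adora2a and Adora2b spread most widely.

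Of the 9 members above the minimum mean level, limma over all genes called 1 (P2rx1) between WT and Ahr-KO at an adjusted p below 0.05, where 8.84% of 11346 genes were called and 5.16% were called as higher in Ahr-KO. With a single member called of 9, the share is near that of all genes and is not a result about these genes as a set. Between WT and Ahrr-KO limma called 0 of the 9, against 0.0779% of 11546 genes. Over all genes that comparison had 9 calls by limma, 853 genes at an unadjusted p below 0.05, and 4 calls by limma voom on the counts, which likewise called 0 members. Of the members, P2ry2 alone was below 0.05 in limma before adjustment.

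Between Ahr-KO and Ahrr-KO, 3 of the 9 (Adora3, P2rx1 and P2ry2) were called, all lower in Ahrr-KO, where 14.9% of 11474 genes were called and 6.84% were called as lower in Ahrr-KO. Between males and females of all genotypes, 3 of the 9 (Adora2a, Adora2b and Adora3) were called, where 3.06% of 11468 genes were called. Adora2a and Adora2b were lower in males, as were 2.46% of all genes by call, and Adora3 was higher, as were 0.602%. Nt5e, with 2 to 21 counts per sample, lay below the minimum in each comparison and was not tested. Both comparisons with WT use the same WT samples, and both knockout groups also enter the direct comparison, so these results are not independent of each other.

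**Figure D2:**
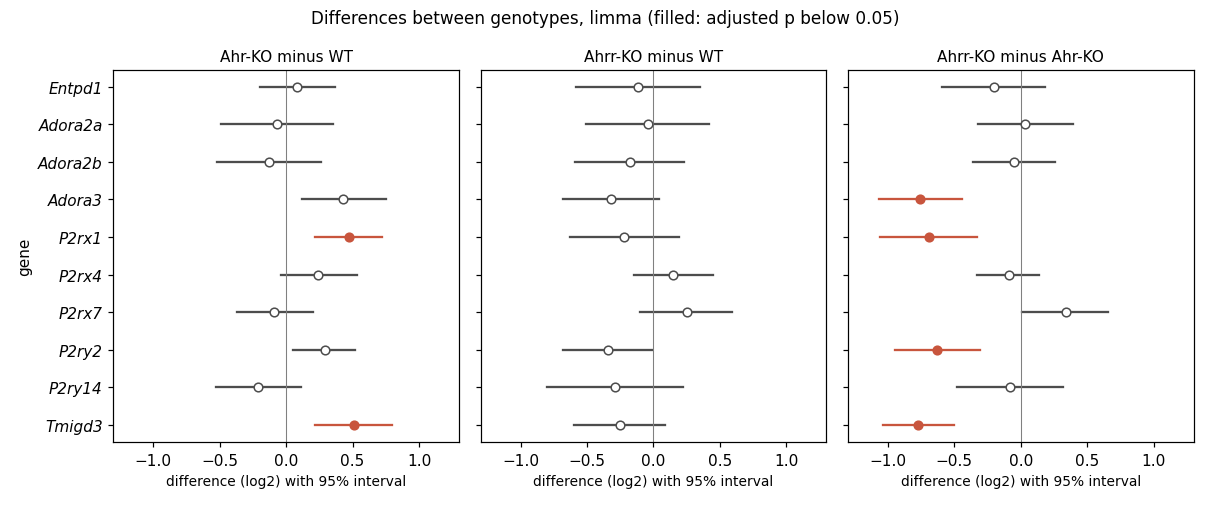
Differences between genotypes (log2, from limma) with 95% intervals for the 9 tested members and Tmigd3, the gene behind the other Adora3 entry. Filled points passed an adjusted p of 0.05: P2rx1 and Tmigd3 in Ahr-KO minus WT, none in Ahrr-KO minus WT, and Adora3, P2rx1, P2ry2 and Tmigd3 in Ahrr-KO minus Ahr-KO.

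When females and males were compared apart, 1 member (P2rx1) showed no overlap of WT and Ahr-KO within either sex and the same direction in both, against 7.02% of all tested genes. For Ahr-KO and Ahrr-KO, 3 members (Adora3, P2rx1 and P2ry2) did so, against 7.85%. The term for a genotype difference that varies with sex was called for 0% of genes in limma, 0 of 11346 for WT and Ahr-KO and 0 of 11546 for WT and Ahrr-KO. At an unadjusted p below 0.05 it had 533 and 544 genes in limma, and limma voom likewise called 0 in each (549 and 457 unadjusted). A difference of a member between a knockout and WT was thus not shown to depend on sex, and between Ahr-KO and Ahrr-KO this term was not tested. With 3 samples per genotype and sex this test can miss differences. In simulated data for WT and Ahr-KO it recovered 51.5% of changes of 2 (log2). The comparisons of genotypes and of the sexes recovered 82% to 90.5%.

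The promoters of P2rx1, Adora3 and P2ry2 are shown because these 3 members differed between the knockouts of a transcription factor and of its repressor. They are RefSeq sequences of build GRCm38.p6, from 250 bases before to 50 after the annotated start, at chr11:72998895-72999194 on the plus strand for P2rx1, chr3:105904171-105904470 on the plus strand for Adora3 and chr7:101012004-101012303 on the minus strand for P2ry2. Capitals mark GCGTG, the core of the AHR response element, searched on both strands, so that a match on the other strand reads CACGC.
P2rx1: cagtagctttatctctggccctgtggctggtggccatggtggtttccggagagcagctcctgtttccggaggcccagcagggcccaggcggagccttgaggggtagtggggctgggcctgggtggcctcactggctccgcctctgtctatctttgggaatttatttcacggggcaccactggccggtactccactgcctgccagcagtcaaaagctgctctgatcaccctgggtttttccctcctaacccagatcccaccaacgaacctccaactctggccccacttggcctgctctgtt
Adora3: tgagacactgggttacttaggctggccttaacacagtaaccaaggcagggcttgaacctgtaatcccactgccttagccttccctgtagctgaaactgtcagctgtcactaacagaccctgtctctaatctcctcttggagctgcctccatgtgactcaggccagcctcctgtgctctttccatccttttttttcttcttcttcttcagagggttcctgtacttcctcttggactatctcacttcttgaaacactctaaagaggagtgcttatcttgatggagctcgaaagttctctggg
P2ry2: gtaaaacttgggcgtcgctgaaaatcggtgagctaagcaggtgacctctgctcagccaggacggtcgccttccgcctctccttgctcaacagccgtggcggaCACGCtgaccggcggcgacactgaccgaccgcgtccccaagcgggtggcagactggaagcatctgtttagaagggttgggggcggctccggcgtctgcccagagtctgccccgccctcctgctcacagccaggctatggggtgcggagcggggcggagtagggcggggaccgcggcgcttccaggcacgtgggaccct
The P2ry2 window held the motif once, starting at base -148 relative to the RefSeq start, and the windows of P2rx1 and Adora3 did not hold these letters. The gene spans given below are from GENCODE, which starts P2ry2 at 101012866 and Adora3 at 105870858, so the windows of these 2 genes lie inside their GENCODE spans. RefSeq gave 15 windows for 9 members, and Adora2a had no entry. The motif stood in 6 windows of 5 members, namely Entpd1 (base -18), Nt5e (base -138), Adora2b (base -42), P2ry14 (base -163) and both windows of P2ry2 (bases -148 and -203), which overlap. No window of P2rx4 or P2rx7 held it. Of 32851 promoter windows searched across the genome, 10639 (32.4%) held the motif, which is a description of the letters and not of binding.

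Among the ectonucleotidases, Entpd1 was high in all groups and did not pass the test in any comparison. Entpd1 (Entrez 12495, chromosome 19 of GRCm38, 40612366 to 40741602) had log2 levels of 11.68, 12.01 and 12.43 in WT (lowest, median and highest, n = 6), 11.86, 12.10 and 12.44 in Ahr-KO, and 11.15, 11.91 and 12.54 in Ahrr-KO. The 3 groups overlapped over most of their ranges, and Ahrr-KO spread most, with 3 of its 6 samples below every Ahr-KO sample and 1 above. Its log2 difference was 0.08 for Ahr-KO minus WT (95% interval -0.20 to 0.37, limma adjusted p = 0.748) and -0.12 for Ahrr-KO minus WT (-0.58 to 0.35, adjusted p = 0.873), and both changed sign when a sample was left out (-0.01 without WT F1 and 0.02 without Ahrr-KO M3). Males minus females gave -0.30 (log2, -0.61 to 0.02, limma adjusted p = 0.291).

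Nt5e (Entrez 23959, chromosome 9, 88327197 to 88372092), the gene of the enzyme that makes adenosine from AMP, had 2.56 to 16.5 normalized counts in WT, 1.89 to 7.97 in Ahr-KO and 3.51 to 14 in Ahrr-KO, with log2 levels of 5.37 to 6.03 over the 18 samples. It lay below the minimum mean level, so its differences were not tested. Mean log2 levels in WT and Ahr-KO were 5.80 and 5.47 in females and 5.51 and 5.61 in males (n = 3 each). In females the lowest WT level (5.57, from 3 counts) and the highest Ahr-KO level (5.56, from 5 counts) almost met, and in males the groups overlapped.

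Acpp, listed under its newer symbol Acp3 among the other ectonucleotidases, also encodes an enzyme that makes adenosine from AMP, known as prostatic acid phosphatase. Its level in WT was 348, 534 and 565 normalized counts per kilobase of exon (lowest, median and highest, n = 6), above each of the Nt5e values; this level per length was added after its values were seen. In Ahr-KO it was 117, 156 and 190 normalized counts per kilobase and in Ahrr-KO 352, 483 and 697. All 6 Ahr-KO samples lay below every sample of the other groups, which overlapped each other. Its log2 level was 11.87 ± 0.26 (SD, n = 6) in WT and 10.22 ± 0.24 in Ahr-KO, a difference of -1.65 (standard error 0.12, limma adjusted p = 2.33e-07), and Ahr-KO had 0.31 times the mean normalized count of WT. Ahrr-KO minus Ahr-KO was 1.54 (log2, standard error 0.16, limma adjusted p = 2.53e-05). Ahrr-KO minus WT was -0.11 (log2, standard error 0.18, limma adjusted p = 0.857).

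**Figure D3:**
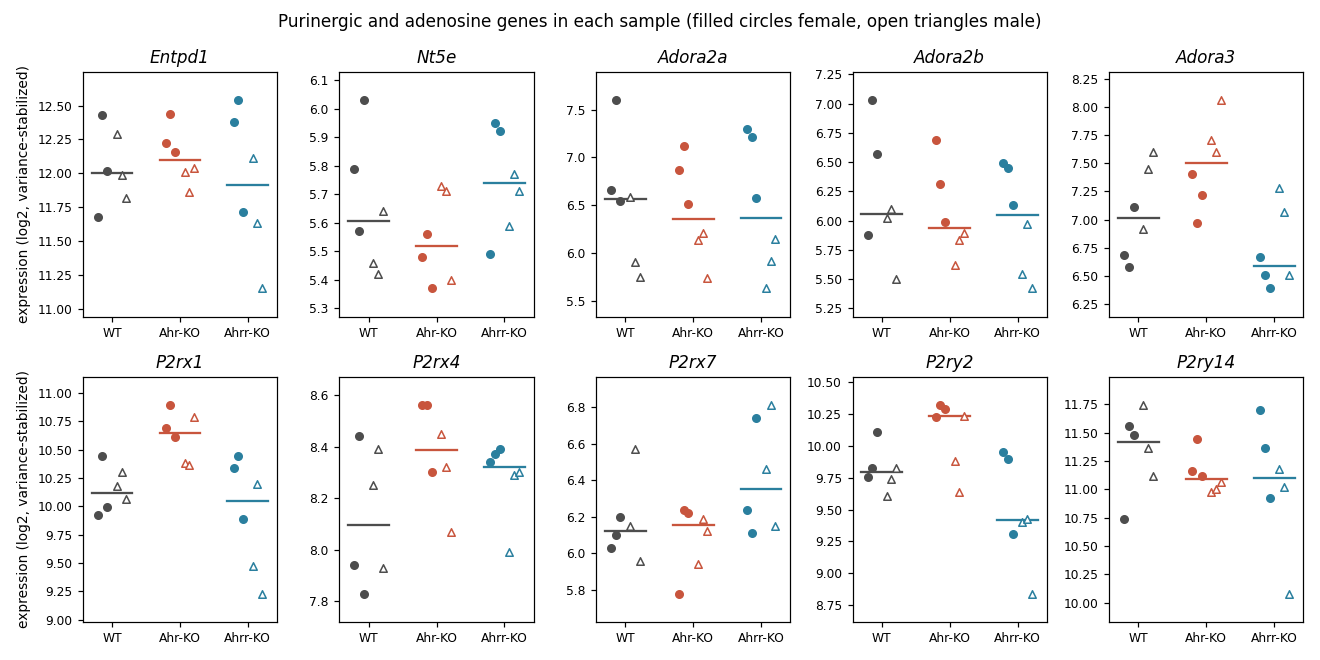
Log2 variance-stabilized level of each member in every sample, by genotype, with females as filled circles, males as open triangles and the group median as a line. P2rx1 was higher in Ahr-KO (median 10.65) than in WT (10.12) and Ahrr-KO (10.05), and Adora2a and Adora2b were lower in males than in most females of each genotype.

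Among the adenosine receptors, Adora3 separated the knockouts. Adora3 (Entrez 11542, chromosome 3, 105870858 to 105908926) encodes the A3 receptor, which lowers cyclic AMP. Its log2 levels were 6.58, 7.02 and 7.60 in WT (lowest, median and highest, n = 6), 6.97, 7.50 and 8.06 in Ahr-KO, and 6.39, 6.59 and 7.28 in Ahrr-KO. Of the Ahrr-KO samples 4 lay below every Ahr-KO sample and all 6 below the Ahr-KO median, with the overlap coming from Ahrr-KO males and Ahr-KO females. Ahrr-KO minus Ahr-KO was -0.76 (log2, standard error 0.15, 95% interval -1.07 to -0.44, limma adjusted p = 0.00503), and the mean normalized count was 2.31 times as high in Ahr-KO. Within females the mean log2 levels were 7.20 in Ahr-KO and 6.52 in Ahrr-KO, and within males 7.79 and 6.95, with no overlap in either sex.

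Against WT, Adora3 did not pass the test. Ahr-KO minus WT was 0.43 (log2, 95% interval 0.12 to 0.75, limma adjusted p = 0.0801, ratio of mean normalized counts 1.56), with 5 of 6 Ahr-KO samples above the WT median. It passed under quantile normalization (log2 difference 0.48, adjusted p = 0.0427) and under no other setting tried, where adjusted p with a sample left out ranged from 0.0534 to 0.183. Ahrr-KO minus WT was -0.32 (log2, -0.68 to 0.04, limma adjusted p = 0.671, ratio 0.67).

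The entry labelled Adora3 with the ID of Tmigd3, a gene of an immunoglobulin-domain protein that overlaps Adora3 on the same strand (105870903 to 105924042), followed the same order. The genes share 779 exon bases, which is 20.9% of the 3729 of Adora3 and a larger part of the 2296 of Tmigd3. Reads there cannot be given to either gene with certainty. Tmigd3 had log2 levels of 6.25, 6.83 and 7.11 in WT (lowest, median and highest, n = 6), 7.15, 7.25 and 7.49 in Ahr-KO, and 6.15, 6.60 and 6.72 in Ahrr-KO. Every Ahr-KO sample lay above every sample of the other groups. Ahr-KO minus WT was 0.51 (log2, standard error 0.14, limma adjusted p = 0.0292, ratio of mean normalized counts 1.76), and Ahrr-KO minus Ahr-KO was -0.77 (log2, standard error 0.13, limma adjusted p = 0.00145, ratio 0.40). The first of these fell short without WT M1 (adjusted p = 0.0529), Ahr-KO F1 (0.0684), F2 (0.0502), F3 (0.0628) or M3 (0.0755), and with no minimum mean (0.067), while the second was called in all 12 fits without a sample.

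Adora2a (Entrez 11540, chromosome 10, 75316877 to 75334784) and Adora2b (Entrez 11541, chromosome 11, 62248984 to 62266453) encode the 2 adenosine receptors that raise cyclic AMP, and they passed the test by sex and not by genotype. Adora2a had log2 levels of 6.51, 6.87 and 7.60 in the 9 females (lowest, median and highest) and 5.63, 5.92 and 6.59 in the 9 males, from 19 to 113 counts in females and 7 to 42 in males. Of the males 8 lay below every female, and the exception was WT M1. Males minus females gave -0.93 (log2, standard error 0.16, 95% interval -1.27 to -0.59, limma adjusted p = 0.00562), and the mean normalized count of females was 4.07 times that of males. By genotype this log2 difference was -0.85 in WT, -0.80 in Ahr-KO and -1.13 in Ahrr-KO (3 females and 3 males each), and the sexes overlapped in WT alone. The call was made in all 18 fits without a sample.

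For Adora2b the log2 levels were 5.88, 6.45 and 7.03 in females (lowest, median and highest, n = 9) and 5.42, 5.83 and 6.10 in males, from 10 to 58 and 3 to 18 counts. All 9 males lay below the female median and 5 of them below every female. Males minus females gave -0.63 (log2, standard error 0.15, 95% interval -0.93 to -0.33, limma adjusted p = 0.0237), with a ratio of mean normalized counts of 3.50 in favour of females. The log2 difference was -0.62 in WT, -0.55 in Ahr-KO and -0.71 in Ahrr-KO. The adjusted p reached 0.05 without WT F2 (0.05), WT M3 (0.0571), Ahr-KO F1 (0.0517), Ahr-KO M1 (0.0566), Ahrr-KO F2 (0.0502) or Ahrr-KO M3 (0.0515), and with no minimum mean (0.0542).

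Adora3 ran the other way, with log2 levels of 6.39, 6.69 and 7.40 in females (lowest, median and highest, n = 9) and 6.51, 7.45 and 8.06 in males. Of the males 5 lay above every female and 8 above the female median. Males minus females gave 0.52 (log2, standard error 0.13, 95% interval 0.26 to 0.78, limma adjusted p = 0.0302), with a ratio of mean normalized counts of 1.82. The log2 difference was 0.53 in WT, 0.59 in Ahr-KO and 0.43 in Ahrr-KO, and only the Ahr-KO sexes did not overlap. The call was lost without WT F2 (adjusted p = 0.0653), WT M2 (0.0546), WT M3 (0.071), Ahr-KO F2 (0.0763), Ahr-KO M1 (0.0573), Ahr-KO M3 (0.0615), Ahrr-KO F2 (0.0527) or Ahrr-KO M2 (0.0509), with no minimum mean (0.0661) and with quantile normalization (0.0522). The overlapping Tmigd3 had a male minus female difference of 0.04 (log2, limma adjusted p = 0.88, ratio of mean normalized counts 1.05), which was -0.03 without WT F1.

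**Figure D4:**
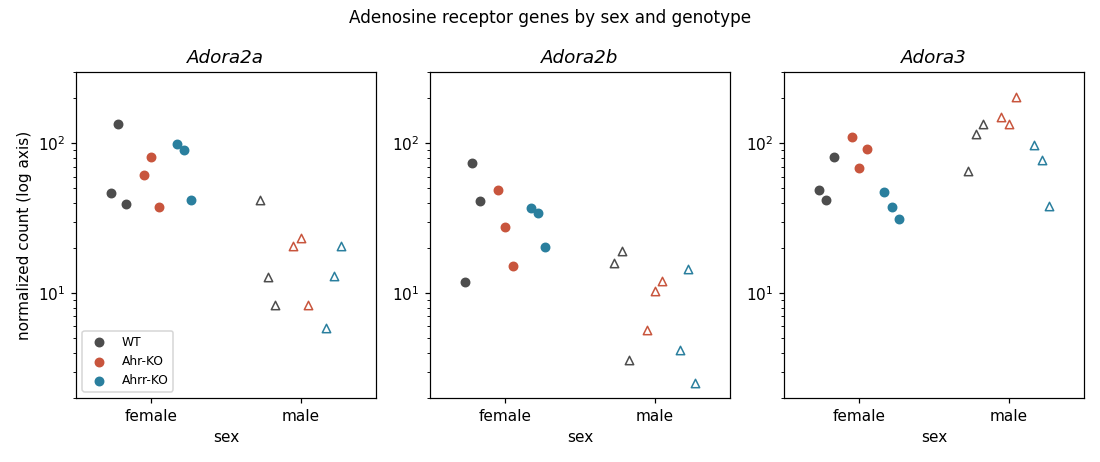
Normalized count (log axis) of the 3 adenosine receptor genes in each sample, females as filled circles and males as open triangles, coloured by genotype. Adora2a and Adora2b were lower in males (log2 differences -0.93 and -0.63) and Adora3 higher (0.52).

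Between genotypes the differences of the A2 receptor genes did not pass the test. For Adora2a, Ahr-KO minus WT was -0.07 (log2, 95% interval -0.49 to 0.35, limma adjusted p = 0.862, ratio of mean normalized counts 0.82) and Ahrr-KO minus WT was -0.04 (-0.51 to 0.42, adjusted p = 0.958, ratio 0.96). Its Ahrr-KO minus Ahr-KO difference was 0.03 (log2, -0.32 to 0.39, limma adjusted p = 0.915, ratio 1.16). No direction is given for these 3 differences, since each changed sign: the first without WT F2 (0.08), WT M1 (0.04) or Ahr-KO F3 (0.00), the second without WT F2 (0.09), WT M1 (0.09), Ahrr-KO F3 (0.04) or Ahrr-KO M1 (0.03), and the last without Ahr-KO F3 (-0.06), Ahr-KO M3 (-0.01), Ahrr-KO F1 (-0.05), Ahrr-KO F2 (-0.03) or Ahrr-KO M3 (-0.01) and under quantile normalization (-0.02), centring of each sample (-0.03), log2(normalized count + 1) (-0.04) and sample weights (-0.03). For Adora2b, Ahr-KO minus WT was -0.13 (log2, -0.52 to 0.26, limma adjusted p = 0.716, ratio of mean normalized counts 0.72), Ahrr-KO minus WT was -0.18 (-0.59 to 0.23, adjusted p = 0.778, ratio 0.68) and Ahrr-KO minus Ahr-KO was -0.05 (-0.36 to 0.26, adjusted p = 0.836, ratio 0.95), with the last at 0.01 without Ahrr-KO M3. Leaving out a sample moved the Adora2b difference to between -0.26 and -0.01 for Ahr-KO minus WT. For Ahrr-KO minus WT it lay between -0.32 and -0.13 in the 11 left-out fits in which Adora2b was tested. Adora1, the remaining adenosine receptor gene, had a summed count of 22 in the 6 WT samples, 6 in Ahr-KO and 32 in Ahrr-KO and was below the minimum.

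Of the ATP-gated channels, P2rx1 was the member with a difference between Ahr-KO and WT. P2rx1 (Entrez 18436, chromosome 11, 72999103 to 73015200) encodes a fast channel known from platelets and myeloid cells. Its log2 levels were 9.92, 10.12 and 10.44 in WT (lowest, median and highest, n = 6), 10.36, 10.65 and 10.89 in Ahr-KO, and 9.23, 10.05 and 10.44 in Ahrr-KO. All 6 Ahr-KO samples lay above the WT median and 4 above every WT sample. Ahr-KO minus WT was 0.47 (log2, standard error 0.12, 95% interval 0.22 to 0.72, limma adjusted p = 0.0228), with a ratio of mean normalized counts of 1.41.

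The P2rx1 difference between Ahr-KO and WT was seen in both sexes, with mean log2 levels of 10.73 against 10.12 in females and 10.51 against 10.18 in males (n = 3 each), without overlap in either. Its interaction with sex was -0.28 (log2, standard error 0.24, limma adjusted p = 0.959). Leaving out a sample gave log2 differences of 0.41 to 0.53, and the call was lost without WT F3 (adjusted p = 0.0602), Ahr-KO F1 (0.056), Ahr-KO F2 (0.062) or Ahr-KO M3 (0.0629). It was also lost with all 18 samples in the fit (0.132) and without both F3 libraries that stood apart (0.0848), a setting chosen after seeing the data.

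In 5 of 6 Ahrr-KO samples P2rx1 lay below every Ahr-KO sample, and it spread more widely, with its 2 lowest log2 levels in M3 (9.23) and M1 (9.47). These libraries also had the highest summed normalized counts of epithelial markers of all 18 (51714 in M3 and 56876 in M1). The sum of eosinophil markers was lowest of all 18 in M3 (14322), while M1 had 34632. Ahrr-KO F3, with the next lowest sum after M3 (21236), had a P2rx1 level of 9.89. The part of other cells in this spread was not tested. Ahrr-KO minus Ahr-KO was -0.69 (log2, standard error 0.17, 95% interval -1.06 to -0.33, limma adjusted p = 0.0186), and the mean normalized count was 1.59 times as high in Ahr-KO. Mean log2 levels were 10.73 in Ahr-KO and 10.23 in Ahrr-KO females, and 10.51 and 9.63 in males. Without Ahr-KO M3 the adjusted p was 0.0512. Ahrr-KO minus WT was -0.22 (log2, -0.63 to 0.19, limma adjusted p = 0.743), and from -0.31 to -0.10 with a sample left out.

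P2rx4 and P2rx7 are neighbours on chromosome 5 (122707544 to 122729738 and 122643911 to 122691432), with 16111 bases between them, and both encode channels found on macrophages. P2rx4 (Entrez 18438) had log2 levels of 7.83 to 8.44 in WT (median 8.09, n = 6), 8.07 to 8.56 in Ahr-KO (median 8.38) and 7.99 to 8.39 in Ahrr-KO (median 8.32). Its log2 difference was 0.24 for Ahr-KO minus WT (95% interval -0.04 to 0.53, limma adjusted p = 0.291), 0.15 for Ahrr-KO minus WT (-0.15 to 0.45, adjusted p = 0.757) and -0.09 for Ahrr-KO minus Ahr-KO (-0.33 to 0.14, adjusted p = 0.584). When a sample was left out, Ahrr-KO minus WT ranged from 0.08 to 0.22 and Ahrr-KO minus Ahr-KO from -0.14 to -0.05. The groups overlapped, and 5 of the 6 Ahrr-KO samples lay within 8.29 to 8.39, with M1 apart at 7.99.

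P2rx7 (Entrez 18439), the channel tied to inflammasome activation, had only 11 to 84 counts per sample, and log2 levels of 5.96 to 6.57 in WT (median 6.13, n = 6), 5.78 to 6.24 in Ahr-KO (median 6.16) and 6.11 to 6.81 in Ahrr-KO (median 6.35). The 3 highest Ahrr-KO samples lay above every Ahr-KO sample. Ahrr-KO minus Ahr-KO was 0.34 (log2, 95% interval 0.01 to 0.66, limma adjusted p = 0.138, ratio of mean normalized counts 1.84), and it passed the test with sample weights alone (0.46, adjusted p = 0.0434). Ahr-KO minus WT was -0.09 (log2, -0.37 to 0.20, limma adjusted p = 0.736, ratio 0.84) and Ahrr-KO minus WT was 0.25 (-0.10 to 0.59, adjusted p = 0.685, ratio 1.55). The P2rx7 difference for Ahr-KO minus WT ranged from -0.14 to -0.01 with a sample left out. The other P2X genes of the pathway list, P2rx2, P2rx3, P2rx5 and P2rx6, had summed counts of 0 to 27 per genotype and were below the minimum.

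P2ry2 (Entrez 18442, chromosome 7, 100996568 to 101012866), a receptor for ATP and UTP known as a sensor of find-me signals from dying cells, differed between the knockouts. Its log2 levels were 9.61, 9.79 and 10.11 in WT (lowest, median and highest, n = 6), 9.64, 10.23 and 10.32 in Ahr-KO, and 8.84, 9.42 and 9.95 in Ahrr-KO. All 6 Ahrr-KO samples lay below the Ahr-KO median and 4 below every Ahr-KO sample. Ahrr-KO minus Ahr-KO was -0.63 (log2, standard error 0.15, 95% interval -0.95 to -0.31, limma adjusted p = 0.0157), and the mean normalized count was 1.57 times as high in Ahr-KO. Mean log2 levels were 10.28 and 9.72 in females and 9.92 and 9.22 in males, without overlap in either sex, and the call was made in all 12 fits without a sample.

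Against WT, P2ry2 had differences of opposite sign that did not pass the test. Ahr-KO minus WT was 0.29 (log2, 95% interval 0.05 to 0.52, limma adjusted p = 0.125), with 4 of 6 Ahr-KO samples above every WT sample. Ahrr-KO minus WT was -0.34 (log2, -0.68 to -0.01, limma adjusted p = 0.665), with 4 of 6 Ahrr-KO samples below every WT sample. Males minus females gave -0.34 (log2, -0.58 to -0.10, limma adjusted p = 0.109).

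P2ry14 (Entrez 140795, chromosome 3, 59113855 to 59153618), a receptor for UDP-glucose and related UDP-sugars, was high and did not pass the test. It had log2 levels of 10.74 to 11.74 in WT (median 11.42, n = 6), 10.98 to 11.44 in Ahr-KO (median 11.09) and 10.08 to 11.70 in Ahrr-KO (median 11.10). In Ahr-KO 5 of 6 samples lay below the WT median, yet all within the WT range. Mean log2 levels in WT and Ahr-KO were 11.41 and 11.01 in males and 11.26 and 11.24 in females (n = 3 each). The interaction of this difference with sex was -0.38 (log2, limma adjusted p = 0.955). The log2 difference was -0.21 for Ahr-KO minus WT (95% interval -0.53 to 0.11, limma adjusted p = 0.437), -0.29 for Ahrr-KO minus WT (-0.80 to 0.22, adjusted p = 0.737) and -0.08 for Ahrr-KO minus Ahr-KO (-0.48 to 0.32, adjusted p = 0.797). The last changed sign without Ahrr-KO M3 (0.09), the sample with the lowest value. With a sample left out, Ahr-KO minus WT ranged from -0.34 to -0.11 and Ahrr-KO minus WT from -0.44 to -0.10.

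A list of 56 further genes of purine signalling, all in the table, was read from the same fits. Between WT and Ahr-KO 42 were tested, 1 was higher and 3 were lower in Ahr-KO, and the median log2 difference was -0.07, against -0.00 over all tested genes. These 4 calls of 42 are near the share of 8.84% over all genes (5.16% higher and 3.68% lower in Ahr-KO), so they are not a result about the list. The lower ones were Acpp, Cd38, an enzyme that breaks down NAD outside the cell, and Adk, the kinase that turns adenosine back into AMP. Cd38 had a log2 level of 8.86 ± 0.45 (SD, n = 6) in WT and 8.02 ± 0.45 in Ahr-KO (difference -0.84, standard error 0.22, limma adjusted p = 0.0249). Adk had a log2 level of 7.99 ± 0.36 in WT and 7.36 ± 0.23 in Ahr-KO (difference -0.63, standard error 0.13, limma adjusted p = 0.00677), with 0.54 times the mean normalized count, and it was called in all 12 fits without a sample though not with all 18 samples in the fit (0.0906). P2ry6, a UDP receptor, was the higher one, at 6.58 ± 0.17 in WT and 7.07 ± 0.23 in Ahr-KO with no overlap (log2 difference 0.49, standard error 0.13, limma adjusted p = 0.0311). The Cd38 call was lost without WT F3 (adjusted p = 0.0605), WT M3 (0.0567), Ahr-KO F1 (0.0597), F2 (0.0648), F3 (0.0541) or M3 (0.0618), without both F3 libraries (0.104), with all 18 samples in the fit (0.131), with sample weights (0.0561) and with no minimum mean (0.054). The P2ry6 call was lost without WT F2 (0.0557), M2 (0.0583) or M3 (0.0638), or Ahr-KO F2 (0.0838), M1 (0.0693), M2 (0.0537) or M3 (0.0576), with the replicate number as a block (0.0687), with no minimum mean (0.0743) and with all 18 samples in the fit (0.0627).

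By role, the 5 tested ectonucleotidases had a median log2 difference of -0.42 between Ahr-KO and WT with 2 called, and the 11 genes of adenosine handling had -0.22 with 1 called, where 8.84% of all genes were called. These groups are small, and their shares were not tested. The 5 intracellular members of the Entpd family (median 0.11), the 2 tested genes of nucleotide release (-0.05) and the 14 genes of the cyclic AMP arm downstream of adenosine receptors (0.04) had no call. Of the 5 other P2Y receptor genes, with a median of -0.11, P2ry6 was called.

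Between WT and Ahrr-KO 43 genes of this list were tested and limma called 0, with a median log2 difference of 0.08 against 0.01 over all genes; limma voom called 4 genes in the whole comparison. The 3 with the largest differences were Adcy7, an adenylyl cyclase (log2 difference -0.47, limma adjusted p = 0.669), Dpp4, which binds adenosine deaminase (0.47, adjusted p = 0.733), and Enpp1, which splits ATP (0.46, adjusted p = 0.671).

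Between Ahr-KO and Ahrr-KO 43 were tested, 5 were higher and 6 lower in Ahrr-KO, with a median log2 difference of 0.09 against -0.00 over all genes. Of all genes 14.9% were called, 8.04% as higher and 6.84% as lower in Ahrr-KO, and whether the list exceeds these shares was not tested. Which direction had more calls depends on the scaling: 923 of the 1708 calls were higher in Ahrr-KO, but 827 of 1808 with each sample centred on its median and 819 of 1848 with quantile normalization. Besides Acpp, the higher ones were Cd38 (log2 difference 1.06, limma adjusted p = 0.0211), the phosphorylase gene Pnp2 (0.83, adjusted p = 0.0313), the nucleoside transporter gene Slc28a3 (0.76, adjusted p = 0.022) and Adcy6, an adenylyl cyclase (0.87, adjusted p = 0.0265). Lower were Enpp2, which encodes autotaxin (log2 difference -0.83, limma adjusted p = 0.000557), Adcy7 (-0.87, adjusted p = 0.0131), the ADP receptor gene P2ry12 (-0.59, adjusted p = 0.0207), P2ry6 (-0.50, adjusted p = 0.0398), the channel gene Calhm2 (-0.50, adjusted p = 0.0306) and Entpd6 (-0.47, adjusted p = 0.0387). The groups did not overlap for Acpp, Enpp2 and P2ry12. Acpp, Enpp2 and Adcy7 were called in all 12 fits without a sample. P2ry12 was not called without Ahr-KO F1 (adjusted p = 0.0503) or M1 (0.0512), Cd38 without Ahr-KO F2 (0.0502), M1 (0.0504) or M3 (0.0579) or Ahrr-KO M3 (0.0518), and Slc28a3 without Ahr-KO F2 (0.0502), M1 (0.0541) or M3 (0.0558) or Ahrr-KO M3 (0.0545). Adcy6 was not called without Ahr-KO F1 (0.0503), F2 (0.0572), M1 (0.0617) or M3 (0.0688) or Ahrr-KO F3 (0.0547) or M3 (0.0545), and Pnp2 not without Ahr-KO F1 (0.0567), F2 (0.0734), M1 (0.0776) or M3 (0.0745) or Ahrr-KO F3 (0.067), M1 (0.0632) or M3 (0.0587). Calhm2 was not called without Ahr-KO F2 (0.0635), M1 (0.0774), M2 (0.0661) or M3 (0.0658) or Ahrr-KO F3 (0.0672), M2 (0.051) or M3 (0.0744). Entpd6 was not called without Ahr-KO F1 (0.0872), F2 (0.0922), M1 (0.0933), M2 (0.0576) or M3 (0.0649) or Ahrr-KO F2 (0.0504), F3 (0.0853), M2 (0.0626) or M3 (0.0703), and P2ry6 not without Ahr-KO F1 (0.0635), F2 (0.0877), M1 (0.0821), M2 (0.0604) or M3 (0.059) or Ahrr-KO F1 (0.0572), F2 (0.051), F3 (0.0519) or M3 (0.0911). With no sex covariate, Cd38 (adjusted p = 0.0677), Slc28a3 (0.0935), Entpd6 (0.0874), Pnp2 (0.0639) and P2ry6 (0.0628) were not called, and with no minimum mean, Entpd6 (0.0659), Pnp2 (0.0531), P2ry6 (0.0751) and Calhm2 (0.0514) were not.

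**Figure D5:**
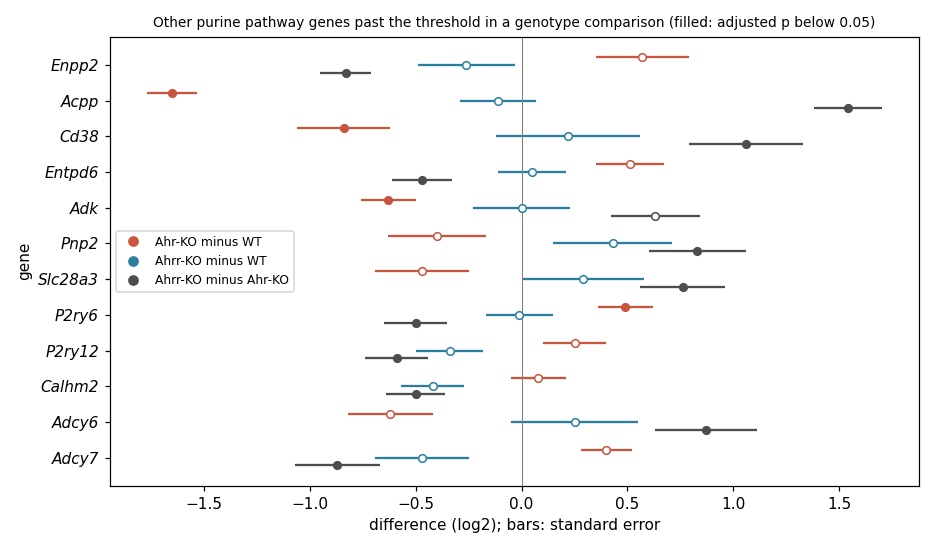
Log2 differences (points) with standard errors (bars) for the 12 genes of the wider purine list that passed the test in a genotype comparison, filled where the adjusted p was below 0.05. Acpp had the largest differences, -1.65 for Ahr-KO minus WT and 1.54 for Ahrr-KO minus Ahr-KO.

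Between males and females 43 genes of the list were tested and limma called 0, with a median log2 difference of -0.01 against 0.01 over all genes; limma voom called 340 genes in the whole comparison. The 3 with the largest differences were the phosphodiesterase gene Pde4b (male minus female -0.58, log2, limma adjusted p = 0.0921), Dpp4 (0.53, adjusted p = 0.306) and Cd38 (0.47, adjusted p = 0.312).

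Some eosinophil markers also differed between genotypes. The summed normalized count of the 9 markers was 24866, 35017 and 38211 in WT (lowest, median and highest, n = 6), 38503, 44609 and 49555 in Ahr-KO, and 14322, 32034 and 38775 in Ahrr-KO. Of 5 tested, Prg2, a granule protein (log2 difference 2.30, limma adjusted p = 3.47e-07), and Alox15 (0.58, adjusted p = 0.023) were higher in Ahr-KO than in WT, as were 5.16% of all genes by call. Between the knockouts 4 of 5 were lower in Ahrr-KO, where 6.84% of all genes were: Prg2 (-2.07), Alox15 (-0.79), Il5ra (-0.75) and Siglecf (-0.72). Ccr3, the second most abundant marker, did not pass in any comparison, with median normalized counts of 12557 in WT, 12106 in Ahr-KO and 11324 in Ahrr-KO. Their part in the differences of the members was not tested.

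Some markers of epithelium differed between the knockouts. The summed normalized count of the 11 markers, with Lyz1 the most abundant, was 8509, 11051 and 23431 in WT (lowest, median and highest, n = 6), 8601, 9191 and 12520 in Ahr-KO, and 10671, 30537 and 56876 in Ahrr-KO. Of 11 tested, 5 (Epcam, Krt8, Krt18, Krt19 and Lyz1) were higher in Ahrr-KO than in Ahr-KO by limma, against 8.04% of all genes, and Muc2 was lower in Ahr-KO than in WT. Their part in the results was not tested.

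Markers of plasma and other immune cells also differed between groups. The 7 markers of B and plasma cells, led by Jchain, had median summed normalized counts of 588 in WT, 309 in Ahr-KO and 4028 in Ahrr-KO (369 to 6207, n = 6), and 2 of 4 tested (Jchain and Sdc1) were higher in Ahrr-KO than in Ahr-KO, again against 8.04%. The 8 neutrophil markers, led by Cxcr2, had medians of 799, 1163 and 2120 in the same order. Of 4 tested, Cxcr2 was higher in Ahr-KO than in WT, as were 5.16% of all genes by call. S100a8 and S100a9 were higher in Ahrr-KO than in both other groups. In the comparison with WT 9 of 11546 genes (0.0779%) were called. In the comparison with Ahr-KO 8.04% were called as higher in Ahrr-KO. Of the other neutrophil genes, Elane was at 0 in 17 samples, Mpo in 14, Ly6g in 13 and Camp in 13, while Ngp had a median normalized count of 11.6 and was at 0 in none.

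Of 13 markers of macrophages and dendritic cells, which sum to medians of 10691 in WT, 10015 in Ahr-KO and 10515 in Ahrr-KO normalized counts and are led by Adgre1, which eosinophils also express, 1 of 10 tested was called between WT and Ahr-KO (Csf1r, higher in Ahr-KO), against 8.84% of all genes. Between Ahr-KO and Ahrr-KO 2 of 11 were called (C1qb higher and Itgae lower in Ahrr-KO), against 14.9%. The macrophage genes C1qa, C1qb and C1qc had higher median normalized counts in Ahrr-KO (60.1, 232 and 173) than in WT (10.6, 47 and 54.8) and Ahr-KO (22.4, 76.5 and 58.4). Their part in the results was not tested.

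The 5 endothelial markers, led by Pecam1, had median summed normalized counts of 3289 in WT, 2082 in Ahr-KO and 2798 in Ahrr-KO. Pecam1 was lower in Ahr-KO than in WT, and Cdh5 was higher in Ahrr-KO than in Ahr-KO. The 6 fibroblast markers, led by Col3a1, had 102, 90.1 and 319 (51.8 to 1583 in Ahrr-KO, n = 6), with Col1a2 higher in Ahrr-KO than in Ahr-KO. The 6 pancreatic markers, led by Ctrb1, had 814 in WT (30.1 to 2712), 11.3 in Ahr-KO and 22.1 in Ahrr-KO, and 2 of 4 tested (Prss2 and Ctrb1) were lower in Ahr-KO than in WT, against 3.68% of all genes. The part of these lists in the results was likewise not tested.

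Beside the sex differences of the adenosine receptors, Kit, the mast cell receptor tyrosine kinase, was lower in males (log2 difference -0.94, limma adjusted p = 0.0245), the single gene tested of 7 mast cell markers. The summed normalized count of these markers was 73.6 to 538 in females (median 179, n = 9) and 58.8 to 183 in males (median 77.6), and by genotype its medians were 83.9 in WT, 108 in Ahr-KO and 182 in Ahrr-KO. Of the other mast cell markers Tpsb2, Fcer1a and Ms4a2 were at 0 in 15, 15 and 13 of 18 samples and Mcpt1 and Mcpt2 in 9 and 10, while Cpa3 had a median normalized count of 10.2 and was at 0 in 1 sample. H2-Aa (log2 difference 1.48, limma adjusted p = 0.0285) and H2-Ab1 (1.34, adjusted p = 0.0426), genes of the MHC class II that the gate selected against, were higher in males. The part of these genes in the sex differences was not tested.

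The genes whose deposited values followed P2rx1 most closely over the 18 samples, out of 11468, were Gmip (Pearson r = 0.97), Arhgap45 (0.96) and Myo1g (0.96), described without a test. All points share the same libraries, groups and scaling.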

How the data were processed

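RNA of sorted eosinophils from the small intestine was sequenced in 18 samples. The authors used STAR to align the single-ended reads to GRCm38, RSEM for counts and DESeq2, per the labels and methods. The deposited values are the authors' variance-stabilized expression on a log2 scale for 22708 genes. Turning the transformation back gave a whole count for 100% of them (tolerance 0.0001), the source of depth and normalized counts.

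Genes were fitted with limma 3.58.1 in R 4.3.3 (mean-variance trend) with sex as covariate, or genotype for the comparison of the sexes. Tested genes had a mean at least 1 above the lowest value, and a gene was called at a Benjamini-Hochberg adjusted p below 0.05 over all of them. Differences are the second group named minus the first in the order WT, Ahr-KO, Ahrr-KO, and male minus female. The tests were tested on simulated data.

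Named were all members, Ahr, Ahrr and Cyp1b1, the called genes of the purine list or otherwise its 3 largest differences, the 3 genes most correlated with a member called against WT, and of each marker list described the most abundant gene and those at 0; other markers were named after their values were seen. Members and lists were chosen with earlier results of these data known. Positions and lengths are from GENCODE M21, and promoters from RefSeq. Tables were made with pandas 2.3.3 and numpy 2.4.6 in Python 3.11.15, and figures with matplotlib 3.10.9.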

Additional observations from a re-analysis of the deposited data

Results flagged for a closer look

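In Ahrr-KO the M1 sample had a P2rx4 level of 7.99 (log2, variance-stabilized), apart from the other 5 Ahrr-KO samples, and the gap to the nearest of them was 0.75 of the whole range of the group. It was the only such value among the 33 groups of values examined, and chance gives about 1 in 20 groups. P2rx4 was not called in any comparison.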

How the results depend on the processing

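Beside leaving out samples, each genotype comparison was rerun under 11 settings, of which leaving out both F3 libraries was chosen after seeing the data, as were the scalings and left-out samples of the sex comparison. The cause of a change was not tested unless the setting itself changes how many genes or samples are used. Between WT and Ahr-KO the number of genes called fell to 553 with all 18 samples in the fit and 586 without the 2 F3 libraries, was 918 with the replicate number as a block, and ranged from 623 (without Ahr-KO F1) to 1124 with a sample left out. Members called there numbered 2 with quantile normalization (Adora3 and P2rx1), 0 with all 18 samples, 0 without the F3 libraries, and 0 to 1 with a sample left out (0 without WT F3, Ahr-KO F1, F2 or M3). Between WT and Ahrr-KO, 4 genes were called with no minimum mean, centring, log2(normalized count + 1), limma voom or the replicate block, 5 with the stricter minimum or quantile normalization, 14 with all 18 samples and 18 with sample weights. With a sample left out it was 4 to 25, namely 4 without WT F1, F2, M2 or M3 or Ahrr-KO F2, M2 or M3, 5 without Ahrr-KO F3 and 25 without Ahrr-KO F1, and limma called 0 members in each of these fits. Between Ahr-KO and Ahrr-KO, 828 genes were called with the stricter minimum, 994 without the sex covariate and 1946 with the replicate block. Leaving out a sample gave 818 to 2574, and the count moved by over 1.5 times without Ahr-KO F1 (907), F2 (970), M1 (839), M2 (933) or M3 (818) or Ahrr-KO F1 (2574), F3 (1001) or M3 (923). Between the sexes, 163 genes and 1 member (Adora2a) were called with no minimum mean, and leaving out a sample gave 142 to 733 genes and 1 to 3 members. The count of genes there moved by over 1.5 times without WT F1 (733), F2 (181), M1 (595) or M3 (160), Ahr-KO F1 (205), F2 (159), M1 (142), M2 (180) or M3 (211), or Ahrr-KO F1 (206), F2 (173), F3 (577) or M3 (188), and the members fell to 1 without WT F2, WT M3, Ahr-KO M1 or Ahrr-KO F2. For members, changes of sign occurred only in differences that were not called. The Adora2a difference between Ahr-KO and Ahrr-KO was -0.03 with centring, -0.02 with quantile normalization, -0.04 with log2(normalized count + 1), -0.03 with sample weights and -0.06 without the F3 libraries, and the Tmigd3 difference between the sexes was -0.00 with quantile normalization. With a sample left out, log2 differences ranged from -0.01 to 0.16 (Entpd1) and -0.16 to 0.08 (Adora2a) for Ahr-KO minus WT, from -0.23 to 0.02 (Entpd1) and -0.14 to 0.09 (Adora2a) for Ahrr-KO minus WT, from -0.06 to 0.11 (Adora2a), -0.14 to 0.01 (Adora2b) and -0.18 to 0.09 (P2ry14) for Ahrr-KO minus Ahr-KO, and from -0.03 to 0.10 for Tmigd3 between the sexes. Adora2b passed the minimum mean in 7 of the 12 left-out fits of the knockouts. With the longest transcript as length the order of the WT medians was the same, with medians per kilobase of 959 for Entpd1, 343 for P2ry14, 274 for P2ry2, 54.9 for P2rx4, 30.7 for Adora3 and 1.35 for Nt5e, each moved by more than 1 SD. Calls higher in Ahrr-KO than in Ahr-KO were 54.0% of all calls there, but 45.7% with centring and 44.3% with quantile normalization, and calls higher in males fell from 69 to 43 with centring. With centring the median log2 difference over all genes changed sign between WT and Ahrr-KO (0.011 to -0.034), between WT and Ahr-KO (-0.004 to 0.014) and between the sexes (0.013 to -0.020), and with quantile normalization it did so between WT and Ahrr-KO (-0.027) and between WT and Ahr-KO (0.008). The stricter minimum left Adora2a, Adora2b, Adora3 and P2rx7 untested. The Adora3 call between Ahr-KO and Ahrr-KO was therefore not made there, and 2 members were called in place of 3. For the members tested in them, the other settings kept the direction of the differences and the calls described in the text. Same-numbered samples of 2 genotypes were correlated by their deviations from the mean of their genotype and sex. Median correlations were -0.03, 0.01 and 0.03, and single pairs ran from -0.59 to 0.47. With 6 such pairs in each comparison, these values cannot decide whether the replicate numbers pair samples across genotypes.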
